A study of Homo sapiens with 22 samples.

Results

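The kinesins are the motor proteins that use ATP to move along, or to take apart, microtubules, and their transcripts were read in maturing human erythroid cells with and without the histone variant H2A.X or the kinase BAZ1B. The members are all gene names in both count tables that are built as KIF or KIFC, a number and at most a letter from A to C, which gave 41 of 59087 names. Of these, 15 act mainly on the mitotic spindle, on chromosomes or at the cytokinetic bridge, and 26 carry cargo, serve cilia and flagella or have other roles. The rule uses names only, although the set was chosen with earlier results of these data known. KIF23, a motor of cytokinesis whose name has the same form, was not analysed here.

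RNA-Seq libraries came from HUDEP-2 cells, an immortalised line of human erythroid progenitors that is kept dividing in expansion medium and matures in differentiation medium. Cells were taken at D0 in expansion and at D6 of maturation, in an H2A.X experiment with 2 H2A.X WT and 3 H2A.X KO libraries per day and in a separate BAZ1B experiment with 3 BAZ1B WT and 3 BAZ1B KO libraries per day. The KO lines were subclones made by CRISPR/Cas9 deletion, for H2A.X of the stretch from before the start codon to after the stop codon and for BAZ1B of a stretch that holds the first exon, and the WT cells carried no such deletion. The column names number the KO libraries KO1 to KO3 at both days, and the paper calls its KO subclones KO1 to KO3. The labels do not state that these are the same subclones, and they give the WT replicates a number only. The p-values measure the spread between these libraries.

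Kinesins share an ATPase motor domain, and most walk toward the growing end of the microtubule. The kinesin-13 family shortens microtubules instead, and the kinesin-14 family walks toward the other end. In dividing cells mitotic kinesins push the spindle poles apart, move chromosomes and finish cytokinesis, so their transcripts are known to peak when cells divide, and erythroid progenitors are known to divide several times before they leave the cell cycle, condense the nucleus and expel it. Kinesin-1, kinesin-2 and kinesin-3 motors carry vesicles, mitochondria and ciliary cargo.

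Promoters of mitotic kinesins are printed here because 12 of the 14 tested rose from D0 to D6 in BAZ1B WT. KIF2A and KIF4B fell there, KIF2B had no reads, and in H2A.X WT no mitotic kinesin was called. The motif counts below include all of these genes. The letters searched were TTTGAA and TTCGAA, which are forms of the cell cycle homology region of genes expressed in mitosis, and CCAAT, on both strands and in the 250 bases before the start, where RefSeq had an entry for 33 of the 41 genes on GRCh38.p14. TTCGAA reads the same on both strands, and a CCAAT and a TTTGAA can share the T between them. Either form of the first was held by 5 of 15 mitotic and by 1 of 18 other kinesin promoters, against 14.4% of all 34943 promoters. CCAAT was held by 11 of 15 mitotic and by 5 of 18 other kinesin promoters, against 32.0% of all promoters. The last 100 bases before the start follow, 5′ to 3′ on the gene's strand, with the searched letters in capitals, for 6 mitotic kinesins that hold CCAAT, of which KIF11 was added after its letters were seen because it also holds the other motif:
KIF4A (chrX:70290004-70290103, forward strand): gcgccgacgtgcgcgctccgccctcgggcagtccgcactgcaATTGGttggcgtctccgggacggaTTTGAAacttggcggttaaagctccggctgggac
KIF11 (chr10:92593030-92593129, forward strand): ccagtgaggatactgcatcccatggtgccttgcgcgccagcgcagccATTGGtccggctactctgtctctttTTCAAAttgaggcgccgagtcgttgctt
KIF14 (chr1:200620752-200620851, reverse strand): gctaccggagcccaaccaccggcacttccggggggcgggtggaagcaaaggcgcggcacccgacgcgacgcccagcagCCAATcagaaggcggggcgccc
KIF18B (chr17:44947774-44947873, reverse strand): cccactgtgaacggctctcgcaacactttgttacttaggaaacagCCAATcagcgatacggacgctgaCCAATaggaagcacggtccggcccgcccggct
KIF20B (chr10:89701490-89701589, forward strand): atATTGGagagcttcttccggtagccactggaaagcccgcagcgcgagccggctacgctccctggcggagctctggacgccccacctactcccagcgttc
KIFC1 (chr6:33391723-33391822, forward strand): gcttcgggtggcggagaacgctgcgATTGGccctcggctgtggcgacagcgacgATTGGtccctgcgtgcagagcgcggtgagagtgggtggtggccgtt

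For comparison, the same window is given for 4 kinesins outside the mitotic list that changed between D0 and D6, chosen for having none of these letters in it, and for KIF4B, the intronless copy of KIF4A:
KIF1B (chr1:10210470-10210569, forward strand): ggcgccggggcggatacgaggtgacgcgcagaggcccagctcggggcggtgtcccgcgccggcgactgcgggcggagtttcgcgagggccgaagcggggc
KIF1C (chr17:4997850-4997949, forward strand): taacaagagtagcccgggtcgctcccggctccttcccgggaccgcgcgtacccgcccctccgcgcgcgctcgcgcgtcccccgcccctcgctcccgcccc
KIF13A (chr6:17987636-17987735, reverse strand): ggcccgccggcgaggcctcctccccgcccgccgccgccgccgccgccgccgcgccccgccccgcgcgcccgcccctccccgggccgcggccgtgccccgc
KIF26A (chr14:104138487-104138586, forward strand): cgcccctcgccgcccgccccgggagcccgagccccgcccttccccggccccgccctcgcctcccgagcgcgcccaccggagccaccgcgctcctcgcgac
KIF4B (chr5:155013655-155013754, forward strand): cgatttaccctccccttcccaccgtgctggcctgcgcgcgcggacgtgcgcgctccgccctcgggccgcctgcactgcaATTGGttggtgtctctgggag

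The window of KIF4A holds ATTGG, which is CCAAT on the other strand, and TTTGAA nearer to the start, and the window of KIF4B holds only the ATTGG. KIF3B and KIF5B, which also changed and are not in the mitotic list, hold CCAAT in this window, and KIF1B holds it further from the start, so the 4 printed windows do not stand for the other kinesins. A match is a run of letters and not a measured binding site, and a RefSeq start can lie inside the span that GENCODE gives the gene. In their Ensembl canonical transcripts KIF4A and KIF4B were identical at 95.6% of 4329 aligned bases, so that reads of the pair can be split wrongly and the KIF4B counts are uncertain.

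Total counts ran from 11910141 to 21013004 per library in the H2A.X experiment and from 33199408 to 41273244 in the BAZ1B experiment. The erythroid marker list of 13 genes, globins and glycophorin A among them, summed to between 12250 and 72970 CPM (counts scaled to a common library size) in the H2A.X libraries and between 6594 and 44860 in the BAZ1B libraries. The mast cell and eosinophil list reached 419 CPM in the H2A.X libraries and 620 in the BAZ1B libraries, each at D0. The megakaryocyte list reached 75.7 and 75.5 CPM, also at D0, although its members PF4 and PPBP were at 0 in all libraries. The lymphocyte and fibroblast lists stayed below 1 CPM. The H2A.X transcript, named H2AFX in the tables, was lower in every KO library (between 308 and 1050 normalized counts) than in any WT library (between 1575 and 2391), and was still counted in all of them. BAZ1B was lower in every BAZ1B KO library (between 6556 and 8349) than in any WT library (between 9104 and 9913), and reads outside the deleted exon do not check the deletion. A normalized count is a count scaled to the mean effective library size of its experiment. In this bulk RNA a smaller number of cells that express a gene and less RNA per cell cannot be told apart.

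Kinesin transcripts took between 0.138% and 0.189% of all counts in H2A.X WT, between 0.216% and 0.252% in H2A.X KO and between 0.221% and 0.238% in the BAZ1B experiment. After the filter on low counts 30 kinesins were tested in the H2A.X experiment, 14 mitotic and 16 other, and 31 in the BAZ1B experiment, 14 mitotic and 17 other. The testis-expressed KIF2B was the only mitotic member left out, with 0 reads in every library of both experiments. The other kinesins left out numbered 10 in the H2A.X experiment, with at most 11 reads in any library, and 9 in the BAZ1B experiment, with at most 10. KIF12 had no read in any library. Among those left out in both experiments were KIF1A and KIF5C, motors of neuronal axons, and KIF17, KIF7 and KIF19, which serve cilia.

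Per transcript length, the most abundant kinesins in both experiments were KIF22, KIFC1 and KIF2C. KIF22, a chromokinesin that pushes chromosome arms away from the spindle poles (chr16:29790727-29805385, forward strand, GRCh38), stood at 60.3 ± 1.12 (SD, n = 3) CPM per kilobase of transcript in BAZ1B WT at D0 and 98.2 ± 4.37 at D6. KIFC1, a kinesin-14 motor that gathers spindle poles (chr6:33391823-33409896, forward strand), had 68.1 ± 2.07 and 84.3 ± 0.521 on this scale. KIF2C, a kinesin-13 that shortens microtubules at centromeres (chr1:44739818-44767767, forward strand), had 42.9 ± 0.720 and 61.5 ± 0.908. In H2A.X WT at D0 the same 3 genes had 88.5 ± 5.33, 64.4 ± 3.11 and 50.8 ± 0.393 (SD, n = 2). The 2 experiments were normalized apart, so levels are not compared between them.

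The comparison of D6 with D0 asks how kinesin transcripts move as the cells mature, and it was most precise in the BAZ1B experiment, where libraries of a group lay close together. In BAZ1B WT cells, 12 of 14 mitotic kinesins rose and 2 fell, while among the 17 others 7 rose and 9 fell. A call is an adjusted p under 0.05 in edgeR's quasi-likelihood test, adjusted over all 13879 genes tested, of which 68.9% were called (33.5% higher and 35.4% lower). The median log2 fold change was 0.38 in the mitotic and -0.18 in the other kinesins, beside -0.02 over all genes. In BAZ1B KO cells 10 mitotic kinesins rose and 2 fell, and 5 of the others rose and 9 fell, with medians of 0.28 and -0.57, where 67.7% of all genes were called (33.2% higher and 34.5% lower). At stricter cutoffs, an adjusted p under 0.001 and a log2 fold change beyond 1.5 in either direction, 2 kinesins passed in WT, KIF13B and KIFC3, and 4 in KO, these and KIF5A and KIF26A, where 11.7% and 11.5% of genes passed. The same kinesins passed with the p under 0.001 taken without adjustment, where 12.3% of genes did in WT and 12.2% in KO.

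The partners of the mitotic kinesins on the spindle also rose. Of 25 such genes, among them TPX2, PRC1, AURKB and the kinesin CENPE, which carries no KIF name, 24 rose in BAZ1B WT and 20 in BAZ1B KO, with medians of 0.63 and 0.48. Of 12 tested genes of a list of kinesin light chains, accessory subunits and adaptors, 5 rose and 3 fell in WT and 6 rose and 3 fell in KO. That list also holds CENPE, which is thus counted in both. Of 21 tested subunits and regulators of dynein and dynactin, the motor that walks the opposite way to most kinesins, 8 rose and 6 fell in WT and 8 rose and 5 fell in KO. Of all genes tested 33.5% rose and 35.4% fell in WT, and 33.2% rose and 34.5% fell in KO.

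KIF4A, a chromokinesin that shapes chromosomes and the central spindle (chrX:70290104-70420886, forward strand), had 3005, 2984 and 2967 normalized counts in BAZ1B WT at D0 and 4985, 5115 and 5113 at D6. In BAZ1B KO it had 2817, 3286 and 2967 at D0 and 4645, 4871 and 5128 at D6. Every D6 library was above every D0 library in both genotypes, and the log2 fold change was 0.76 ± 0.05 (adjusted p = 3.5e-08) in WT and 0.69 ± 0.05 (adjusted p = 9.5e-08) in KO (± SE). KIF22 rose from 4633, 4700.0 and 4807 to 7706, 7320.0 and 8001 in WT (0.70 ± 0.05, adjusted p = 3.6e-08) and from 5289, 4663 and 4929 to 7595, 7650.4 and 7291 in KO (0.60 ± 0.05, adjusted p = 1.7e-07), again with no overlap. KIF18B, a kinesin-8 motor that limits astral microtubules, rose from 2074, 2218 and 2133 to 3154, 3237 and 3433 in WT (0.61 ± 0.05, adjusted p = 8.1e-08). In KO it rose from 2396, 2317 and 2191 to 3086, 3201 and 3179.8 (0.46 ± 0.05, adjusted p = 1.5e-06).

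The mitotic kinesin with the highest fitted log2 fold change in WT was KIF20A, a motor of the central spindle in cytokinesis, which is outside the rule for named genes and was added after its values were seen. It rose from 3621, 3539 and 3488 to 6165, 6152 and 6212 in WT (0.80 ± 0.07, adjusted p = 4.0e-07) and by 0.66 ± 0.07 (adjusted p = 2.6e-06) in KO.

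Smaller rises were measured for further motors of the spindle and the cleavage furrow. KIF2C rose by 0.52 ± 0.04 (adjusted p = 1.7e-07) in WT and by 0.38 ± 0.04 (adjusted p = 4.0e-06) in KO on the log2 scale. KIF15, which holds the bipolar spindle together with KIF11, had 3123, 3211 and 3277 normalized counts in WT at D0 and 4367, 4395 and 4452 at D6 (0.46 ± 0.05, adjusted p = 4.5e-06), and it rose by 0.43 ± 0.05 (adjusted p = 9.6e-06) in KO. KIFC1 rose by 0.31 ± 0.05 (adjusted p = 6.3e-05) in WT and by 0.15 ± 0.05 (adjusted p = 0.013) in KO. These 3 motors moved by less than a factor of 1.5 in both genotypes. KIF20B, needed for the last cut of cytokinesis, rose from 4431, 4358 and 4466 to 5408, 5607 and 5556 in WT (0.32 ± 0.04, adjusted p = 1.2e-05) and by 0.27 ± 0.04 (adjusted p = 5.8e-05) in KO. KIF14, which works with citron kinase in cytokinesis, rose from 2769, 2769 and 2784 to 3317, 3556 and 3469 in WT (0.31 ± 0.06, adjusted p = 0.00069). In KO it had 2652, 3239 and 3190.1 at D0 and 3167, 3375 and 3348 at D6, which did not pass the test (0.12 ± 0.06, adjusted p = 0.10). The 3 remaining mitotic kinesins that rose in WT were KIF11, KIF18A and KIF24, with log2 fold changes between 0.23 and 0.41, and KIF24 missed the threshold in KO (0.12 ± 0.05, adjusted p = 0.071).

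The 2 mitotic members that fell were KIF2A and KIF4B. KIF2A, a kinesin-13 that shortens microtubules at spindle poles and also acts in cells that do not divide, fell from 4058, 3789 and 3786 to 2332, 2323 and 1999 in WT (-0.81 ± 0.06, adjusted p = 4.4e-08) and from 3893, 4098 and 4044 to 2665, 2522 and 2639.8 in KO (-0.62 ± 0.06, adjusted p = 5.3e-07). Of its exonic bases 18.7% also belong to DIMT1 on the opposite strand, and the sources disagree on whether the library kit kept strand, so reads of that stretch may come from either gene. KIF4B fell by 1.77 ± 0.47 (adjusted p = 0.0045) in WT at no more than 59.4 normalized counts, while KIF4A, whose reads it can share, rose.

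Among the transport kinesins, the kinesin-3 motors fell together: all 5 tested members (KIF1B, KIF1C, KIF13A, KIF13B and KIF16B) were called lower at D6 in both genotypes. KIF13B, which carries membrane scaffold proteins, went from 2375, 2219 and 2100.4 normalized counts in WT at D0 to 633, 647 and 592 at D6 (-1.84 ± 0.08, adjusted p = 5.8e-10). In KO it went from 2154, 2134 and 2265 to 633, 498 and 595 (-1.92 ± 0.08, adjusted p = 4.3e-10). The highest D6 library was far below the lowest D0 library in both genotypes. KIF13A, a motor of recycling endosomes (chr6:17759183-17987635, reverse strand), fell from 5744, 5671 and 5692 to 3239.8, 3100.4 and 3272 in WT (-0.83 ± 0.05, adjusted p = 1.1e-08) and from 5375, 6219.5 and 5954 to 3956, 3659 and 3840.3 in KO (-0.62 ± 0.05, adjusted p = 1.9e-07). KIF1B, which moves mitochondria and vesicle precursors, fell from 1818, 1787 and 1784 to 783, 745 and 773 in WT (-1.23 ± 0.10, adjusted p = 1.1e-07) and by 1.25 ± 0.10 (adjusted p = 1.1e-07) in KO. KIF1C, a fast carrier of dense vesicles, fell from 5259, 5075 and 5227 to 2802, 2650.1 and 2619.7 in WT (-0.95 ± 0.08, adjusted p = 2.6e-07) and also in KO (-1.0 ± 0.08, adjusted p = 1.6e-07). In all of these the D0 and D6 libraries did not overlap.

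The kinesin-2 pair that drives transport in cilia fell as well. KIF3A had 449, 520.4 and 551 normalized counts in WT at D0 and 260.0, 224 and 228 at D6 (-1.09 ± 0.13, adjusted p = 6.5e-06), and in KO its change was -1.15 ± 0.13 (adjusted p = 4.7e-06). KIF3B had 1389, 1467 and 1466 at D0 and 825, 930.1 and 894 at D6 (-0.71 ± 0.06, adjusted p = 1.2e-07), with -0.57 ± 0.05 (adjusted p = 1.0e-06) in KO. KIF3C, a further motor of that family with between 14 and 29 reads per library, was called higher in WT (0.63 ± 0.26, adjusted p = 0.045) but not in KO (0.25 ± 0.27, adjusted p = 0.42).

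The 2 expressed kinesin-1 heavy chains went in opposite directions. KIF5B, the chain used in most tissues, changed little, from 6236, 5986 and 5942 to 5397, 5469.9 and 5129.6 in WT (-0.18 ± 0.04, adjusted p = 0.0012), and by the same size in KO (-0.18 ± 0.04, adjusted p = 0.0016). KIF5A, the chain known mainly from neurons (chr12:57546026-57586633, forward strand), rose from 529, 533 and 607 to 1517, 1669 and 1493 in WT (1.49 ± 0.12, adjusted p = 1.3e-07). In KO it rose from 636, 442 and 463 to 2129, 1869.7 and 1868 (1.93 ± 0.12, adjusted p = 1.3e-08), and no D6 library came near a D0 library.

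KIF26A, an atypical kinesin without motor activity that dampens growth factor signalling in neurons (chr14:104136454-104180894, forward strand), rose from 4804, 4614 and 4919.9 to 11315, 11137 and 12912 in WT (1.30 ± 0.11, adjusted p = 2.2e-07). In KO it rose from 4024, 2755 and 2958 to 12009, 11852 and 11725 (1.87 ± 0.11, adjusted p = 9.6e-09). At D6 it had the highest normalized count of the 41 members in all 6 BAZ1B libraries. KIF21A, a kinesin-4 that slows microtubule growth at the cell cortex, rose slightly, from 1477, 1500.0 and 1505 to 1676, 1668 and 1619 in WT (0.15 ± 0.04, adjusted p = 0.010) and by 0.29 ± 0.04 (adjusted p = 7.9e-05) in KO. The remaining other kinesins that rose in WT were KIF9, KIF27 and KIFC2, by between 0.46 and 0.84, and KIF27 was not called in KO (0.08 ± 0.11, adjusted p = 0.55). For KIF14, KIF24, KIF3C and KIF27, called in WT only, the difference between the genotypes did not pass its own test (adjusted p between 0.25 and 0.68).

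**Figure D1:**
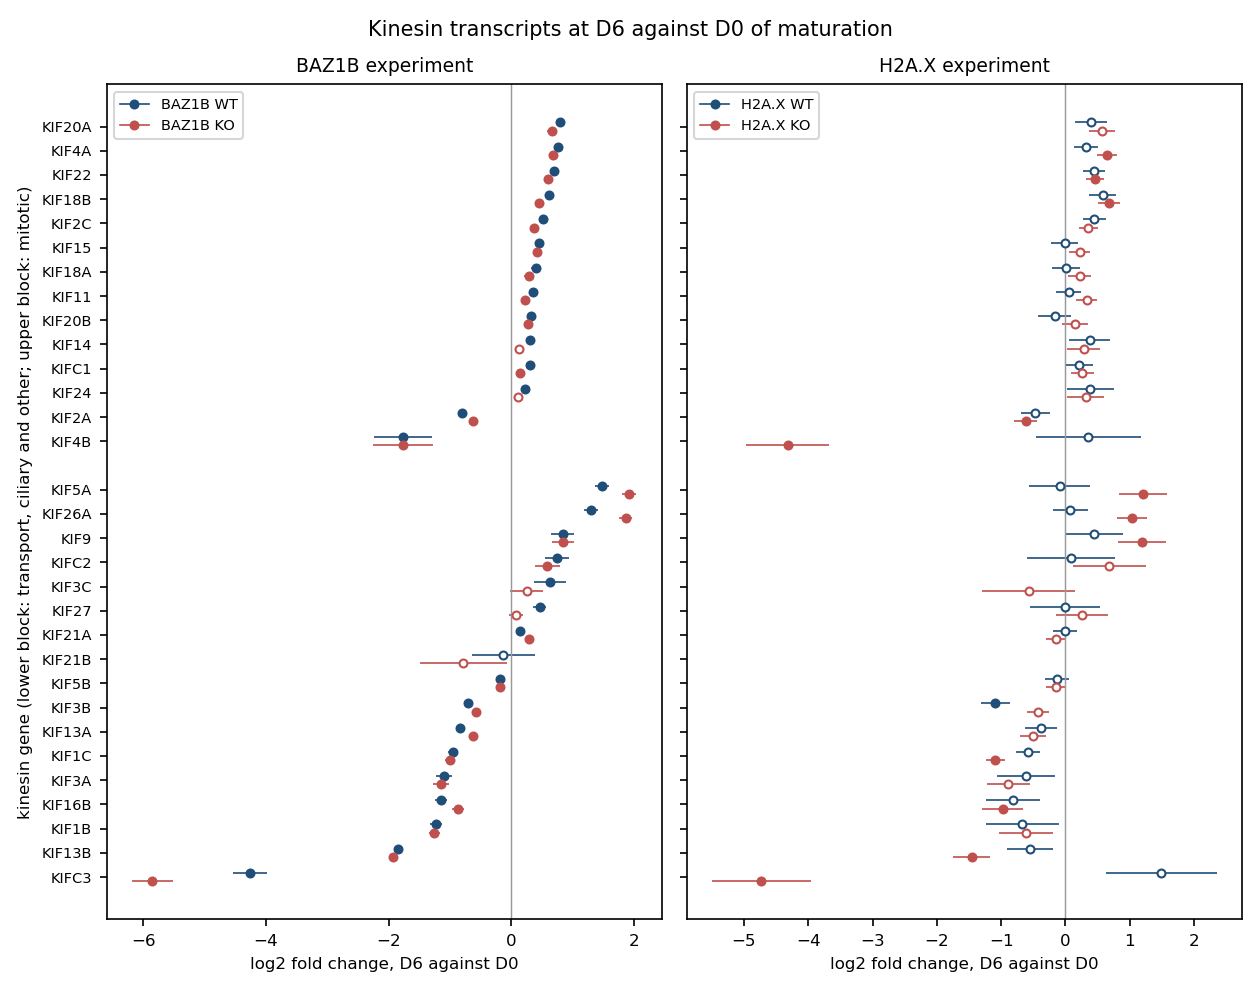
Log2 fold change of D6 against D0 for every kinesin tested in the BAZ1B (left) and H2A.X (right) experiments (horizontal axis), with WT in blue, KO in red and bars of 1 SE; filled points have an adjusted p under 0.05, and the upper block holds the mitotic kinesins. In the BAZ1B panel 12 of 14 mitotic kinesins lie right of 0 in both genotypes and KIFC3 lies furthest left; KIF3C in H2A.X WT is not drawn because its WT libraries at D6 are at 0, and KIF21B was tested in the BAZ1B experiment only.

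KIFC3, a kinesin-14 motor of the Golgi and of cell junctions (chr16:57758217-57863053, reverse strand), fell more than any other member. It had 758, 748 and 823 normalized counts in BAZ1B WT at D0 and 48.0, 49.8 and 24.2 at D6 (-4.26 ± 0.28, adjusted p = 2.5e-08). In BAZ1B KO it had 785, 603 and 774 at D0 and 23.8, 8.12 and 4.19 at D6 (-5.85 ± 0.33, adjusted p = 6.9e-09). Summed marker lists of other blood cells fell over the same days. The mast cell and eosinophil list of 10 genes summed to between 453 and 620 CPM in the D0 libraries and between 12.3 and 40.8 at D6, with CLC, MS4A3 or FCER1A at 0 in some groups. The megakaryocyte list of 5 genes went from between 34.4 and 75.5 to between 1.42 and 10.4 CPM, with PF4 and PPBP at 0 throughout. Few listed genes had over 10 reads in every library of a group. Of the megakaryocyte list 1 did in each group, and of the mast cell and eosinophil list 6 did in each D0 group and 2 in each D6 group. The part of such cells or programs in the fall of KIFC3 was not tested.

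In the H2A.X experiment the spread between libraries was wider (a common biological coefficient of variation of 0.239, against 0.0865 in the BAZ1B experiment) and WT had 2 libraries per day. In H2A.X WT 1 kinesin of 30 was called between D0 and D6, where 2% of 13236 genes were called (0.839% higher and 1.16% lower). It was KIF3B, with 362 and 304 normalized counts at D0 and 182 and 129 at D6 (-1.09 ± 0.22, adjusted p = 0.041). At an unadjusted p under 0.05 there were 6, and DESeq2 called 2, where it called 8.06% of all genes. The call was lost without WT replicate 1 or 2 at D0 or replicate 2 at D6. The medians were 0.34 in the mitotic and -0.25 in the other kinesins, beside 0.01 over all genes, and 0.38 in the partner genes.

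In H2A.X KO cells 3 mitotic kinesins rose and 2 fell, and 3 of the others rose and 4 fell, where 30.9% of genes were called (14.8% higher and 16.1% lower). The medians were 0.30 and -0.47, and 9 of 25 partner genes rose. With the paired D0 and D6 libraries as a block 17 were called, the 12 and KIF2C and KIF20A, which rose, and KIF3A, KIF3B and KIF13A, which fell. With that block 38.5% of all genes were called. The count of 12 was 6 without KO replicate 1 at D0, 7 without KO replicate 2 at D6 and 7 without KO replicate 3 at both days. The last is the KO library at D6 whose column name lacks the word Redo, which the other 5 KO columns and no WT column carry, and what was redone is not given in the sources used here.

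The mitotic kinesins called higher in H2A.X KO were KIF4A, KIF18B and KIF22. KIF4A had 1495, 1597 and 1572 normalized counts in KO at D0 and 2363, 2939.5 and 1994 at D6 (0.65 ± 0.15, adjusted p = 0.011), beside 1349.6 and 1125 in WT at D0 and 1581 and 1509 in WT at D6 (0.32 ± 0.19, adjusted p = 0.37). KIF18B rose from 701, 755 and 755 to 1045, 1399.9 and 1099.5 in KO (0.68 ± 0.17, adjusted p = 0.014), and in WT it had 822 and 572 at D0 and 972 and 1115 at D6 (0.58 ± 0.21, adjusted p = 0.16). In WT neither passed the test, although their D0 and D6 libraries did not overlap there either. KIF22 rose from 2186, 2226 and 2339 to 2606, 3287 and 3373 in KO (0.46 ± 0.14, adjusted p = 0.033). The 2 that fell were KIF2A, from 1816, 1554 and 1636 to 1319, 1036 and 902 (-0.62 ± 0.18, adjusted p = 0.028), and KIF4B, which had 76 reads over the 3 KO libraries at D0 and 3 at D6. Their ratio for equal library size was 0.0443, with an exact 95% counting interval from 0.00893 to 0.134, which covers counting error only.

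Each of the 7 kinesins outside the mitotic list called in H2A.X KO was called in the same direction in both BAZ1B genotypes. Of all genes, 68.9% were called between the days in BAZ1B WT and 67.7% in BAZ1B KO. The share of all genes called in H2A.X KO that did the same was not counted. KIF13B fell from 901, 768 and 819.9 normalized counts to 455, 248 and 202 (-1.46 ± 0.29, adjusted p = 0.0041), and KIF1C from 1522, 1687 and 1636 to 886, 753 and 633 (-1.09 ± 0.15, adjusted p = 0.00070). KIF26A rose from 1480.5, 2798 and 2052 to 4231, 5198 and 3552 (1.04 ± 0.23, adjusted p = 0.0075) and KIF5A from 145, 374 and 297 to 599, 826 and 464 (1.21 ± 0.38, adjusted p = 0.034). In WT KIF26A stood at 3116 and 2430.1 at D0 and at 2916 and 2937 at D6, and KIF5A at 228 and 101 at D0 and at 159.9 and 150.3 at D6, ranges that overlap. The WT changes were 0.08 ± 0.28 (adjusted p = 0.91) and -0.09 ± 0.48 (adjusted p = 0.95). The difference between the genotypes was itself tested and was not called for either, at 0.96 ± 0.36 (adjusted p = 0.24) for KIF26A and 1.30 ± 0.61 (adjusted p = 0.35) for KIF5A. The other 3 called members were KIF16B, which fell by 0.98 ± 0.32 (adjusted p = 0.043), KIFC3, which is given further on, and KIF9, a motor of sperm flagella, which rose by 1.19 ± 0.38 (adjusted p = 0.036).

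**Figure D2:**
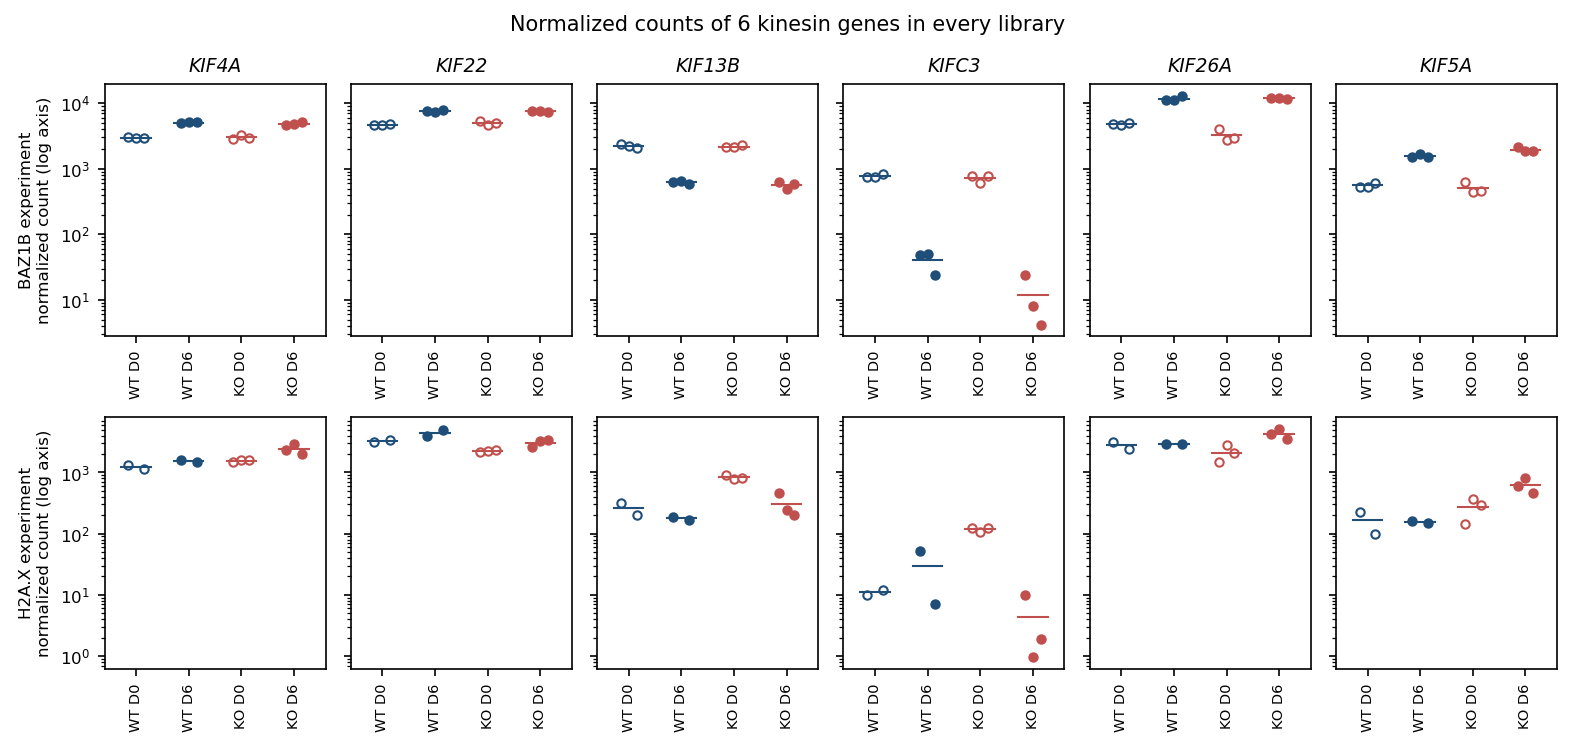
Normalized counts on a log axis for 6 kinesins, 1 point per library and a line at the group mean, in the BAZ1B experiment (upper row) and the H2A.X experiment (lower row), with open points at D0 and filled points at D6. KIFC3 falls from between 603 and 823 to between 4.19 and 49.8 in the BAZ1B libraries, while KIF26A and KIF5A rise in the same libraries.

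The comparison of H2A.X KO with H2A.X WT asks which kinesin transcripts change when the histone variant is lost. At D0, 17 of 30 kinesins were called higher and 3 lower in KO (7 and 1 of 14 mitotic, 10 and 2 of 16 others), where 35.1% of 13236 genes were called (18.4% higher and 16.7% lower). The medians were 0.62 in the mitotic and 0.85 in the other kinesins, beside 0.01 over all genes. At D6, 19 were called higher and 2 lower (9 and 1 mitotic, 10 and 1 others), where 43.1% of genes were called (22.2% higher and 20.9% lower), with medians of 0.75 and 0.89 beside -0.01 over all genes. With KIF3C, at 0 in WT at D6, set to its ratio against a floor of 3 counts per WT library, the median of the others was 0.84.

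Summed marker lists of blood cells moved with the genotype as well. The erythroid list summed to between 24270 and 33520 CPM in WT and between 12250 and 16370 in KO at D0, and to between 38260 and 64880 in WT and between 43710 and 72970 in KO at D6. At D0 the mast cell and eosinophil list summed to between 104 and 140 CPM in WT and between 210 and 419 in KO, and the megakaryocyte list to between 8.72 and 9.67 in WT and between 32.7 and 75.7 in KO. At D0 2 of the 10 mast cell and eosinophil genes had over 10 reads in every WT library, and 5 in every KO library. Of the 5 megakaryocyte genes 1 did in each of these groups. The part of these lists in the kinesin counts was not tested.

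Kinesin transcripts are long, with a median canonical transcript of 5342 bases against 2936 over all matched protein-coding genes, and length moved with the H2A.X contrast. Across 12017 genes with a known length the log2 fold change of KO against WT had a Spearman correlation with transcript length of 0.544 at D0 and 0.601 at D6, where the genes share their libraries and are no independent replicates. In the BAZ1B experiment the same correlations were -0.03 and 0.05. With a correction for length and GC content in each library, 8 kinesins were called higher and 1 lower at D0, and 4 higher and 1 lower at D6, where 21% and 21.1% of all genes were called. The medians became 0.31 (mitotic) and 0.36 (others) at D0 and 0.28 and 0.38 at D6.

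With an adjusted p under 0.001 and a log2 fold change beyond 1.5 no kinesin passed in any H2A.X comparison, where 0.166% of genes passed for KO against WT at D0, 0.151% at D6, 3.22% between the days in KO, and 0% otherwise. With that p taken without adjustment, as the study's methods word it, KIF1B, KIF13B and KIF14 passed at D0, all higher in KO, where 3.88% of genes passed, and KIF14 at D6, where 5.53% did. KIF4B and KIFC3 passed between the days in KO (7.28% of genes), KIFC3 for the difference of the KO effects (1.44%) and none between the days in WT (1.18%). The counts also rested on single WT libraries. Leaving out 1 WT library leaves 1 at that day, which was assumed to vary like the other groups. The share of all genes called in these fits was not counted, so a changed count is no result about kinesins alone. Without WT replicate 2 at D0 no kinesin was called at D0, and without WT replicate 2 at D6 none was called at D6, while without WT replicate 1 at D6 12 were. Leaving out replicate 1 at D0 left 17. WT replicate 2 had the lowest kinesin share of counts at each day (0.138% at D0 and 0.147% at D6), and the word Redo in 5 of 6 KO column names cannot be told apart from genotype. Without KO replicate 3 at both days the counts were 20 at D0 and 22 at D6.

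Among the mitotic kinesins, KIF14, KIF15 and KIF20B were higher in H2A.X KO at both days. KIF14 had 573 and 328 normalized counts in WT and 1508, 1283 and 1361 in KO at D0 (1.62 ± 0.30, adjusted p = 0.0073). At D6 it had 621 and 553 in WT against 1640.0, 2263 and 1148 in KO (1.52 ± 0.30, adjusted p = 0.0050). After the correction for length and GC its difference was 0.87 ± 0.20 (adjusted p = 0.019) at D0 and 0.58 ± 0.20 (adjusted p = 0.067) at D6. KIF20B had 1600.3 and 1018 in WT against 2903, 2732 and 2988 in KO at D0 (1.13 ± 0.24, adjusted p = 0.0090), and 1212 and 1117 in WT against 3479, 3725 and 2330.4 in KO at D6 (1.45 ± 0.24, adjusted p = 0.0038). It stayed called after the correction at both days (0.48 ± 0.14, adjusted p = 0.035 and 0.53 ± 0.14, adjusted p = 0.026). KIF15 had 1281 and 1028 in WT against 1839.8, 1819.9 and 1997 in KO at D0 (0.71 ± 0.19, adjusted p = 0.021) and 1289.7 and 1000.3 in WT against 1982, 2692 and 1909 in KO at D6 (0.94 ± 0.20, adjusted p = 0.0058), and was not called after the correction (0.29 ± 0.15, adjusted p = 0.20 and 0.37 ± 0.15, adjusted p = 0.10).

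KIF2A had 831 and 664 in WT against 1816, 1554 and 1636 in KO at D0 (1.16 ± 0.21, adjusted p = 0.0069) and 626 and 451 in WT against 1319, 1036 and 902 in KO at D6 (1.01 ± 0.21, adjusted p = 0.0060). Its canonical transcript of 7958 bases is the longest of the mitotic kinesins tested, and after the correction the differences were 0.33 ± 0.13 (adjusted p = 0.095) and 0.04 ± 0.13 (adjusted p = 0.84). KIF22, whose canonical transcript of 2081 bases is the shortest, was the mitotic kinesin called lower. It had 3098 and 3374 in WT against 2186, 2226 and 2339 in KO at D0 (-0.52 ± 0.16, adjusted p = 0.027), and 3923 and 4876 in WT against 2606, 3287 and 3373 in KO at D6 (-0.51 ± 0.16, adjusted p = 0.024). After the correction its differences were -0.21 ± 0.12 (adjusted p = 0.24) and -0.07 ± 0.12 (adjusted p = 0.69). KIFC1, KIF2C and KIF18B passed the test at neither day, with differences between -0.16 and 0.18. The other calls among the mitotic kinesins were KIF18A and KIF24, higher at both days, KIF11, KIF20A and KIF4A, higher at D6, and KIF4B, higher at D0 at no more than 25.5 normalized counts.

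Of the 25 partners of the mitotic kinesins, 7 were called higher and 6 lower in KO at D0, with a median of 0.07. At D6, 11 were higher and 7 lower, with a median of 0.37. Of the 12 tested genes of the list of kinesin light chains, accessory subunits and adaptors, CENPE again included, 2 were higher and none lower at D0, and 3 higher and 1 lower at D6. Of 21 dynein and dynactin genes 3 were higher and 6 lower at D0, and 6 higher and 5 lower at D6. Of all genes tested 35.1% were called at D0 (18.4% higher and 16.7% lower) and 43.1% at D6 (22.2% higher and 20.9% lower). The list differences were not tested against each other.

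Of the 5 kinesin-3 motors, KIF1B, KIF13A, KIF13B and KIF16B were higher in H2A.X KO at D0. KIF1B, with the longest canonical transcript of the kinesins tested in either experiment (10855 bases), had 145 and 108 normalized counts in WT and 752, 653 and 598 in KO at D0 (2.40 ± 0.53, adjusted p = 0.010). At D6 it had 89.1 and 68.0 in WT against 776, 372 and 167 in KO (2.47 ± 0.54, adjusted p = 0.0069). It remained called after the correction (1.45 ± 0.39, adjusted p = 0.030 and 1.5 ± 0.41, adjusted p = 0.033). KIF13B had 317 and 202 in WT against 901, 768 and 819.9 in KO at D0 (1.67 ± 0.33, adjusted p = 0.0082), and 186 and 168 in WT against 455, 248 and 202 in KO at D6 (0.77 ± 0.33, adjusted p = 0.085). KIF13A had 1432 and 1457 in WT against 3173, 2546 and 2608 in KO at D0 (0.94 ± 0.23, adjusted p = 0.014) and a difference of 0.81 ± 0.23 (adjusted p = 0.018) at D6. KIF1C passed the test at neither day without the correction (0.42 ± 0.17, adjusted p = 0.076 and -0.09 ± 0.17, adjusted p = 0.67), and with it was lower in KO at D6 (-0.76 ± 0.12, adjusted p = 0.0080).

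Both motors of the kinesin-2 pair were higher in KO. KIF3A had 84.9 and 85.0 in WT against 333, 231 and 285 in KO at D0 (1.74 ± 0.40, adjusted p = 0.012) and a difference of 1.46 ± 0.42 (adjusted p = 0.018) at D6. KIF3B had 362 and 304 in WT against 538, 545 and 542 in KO at D0 (0.70 ± 0.20, adjusted p = 0.023), and 182 and 129 in WT against 467, 403 and 339 in KO at D6 (1.37 ± 0.21, adjusted p = 0.0035). KIF3B was still called at D6 after the correction (0.75 ± 0.14, adjusted p = 0.012) and not at D0 (0.12 ± 0.14, adjusted p = 0.55), and KIF3A was called at neither day (1.06 ± 0.36, adjusted p = 0.060 and 0.57 ± 0.37, adjusted p = 0.29). KIF3C had between 1.93 and 16.5 normalized counts in KO at D6 and 0 in both WT libraries, at least 1.83-fold higher against a floor of 3 counts per library.

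KIF5B had 1907 and 1652 normalized counts in WT and 3150.3, 2825 and 3074 in KO at D0 (0.76 ± 0.17, adjusted p = 0.011), and 1628 and 1627 in WT against 3091, 2963 and 2141 in KO at D6 (0.75 ± 0.17, adjusted p = 0.0083). After the correction its differences were 0.16 ± 0.11 (adjusted p = 0.33) and -0.03 ± 0.11 (adjusted p = 0.85). KIF5A did not pass the test at D0 (0.72 ± 0.43, adjusted p = 0.21) and was higher in KO at D6, with 599, 826 and 464 against 159.9 and 150.3 in WT (2.02 ± 0.46, adjusted p = 0.0075), also after the correction (1.49 ± 0.41, adjusted p = 0.033). KIF21A had 475 and 345 in WT against 911, 867 and 872 in KO at D0 (1.11 ± 0.18, adjusted p = 0.0049), and 420.4 and 395 in WT against 908, 749 and 738 in KO at D6 (0.97 ± 0.18, adjusted p = 0.0043). Its corrected differences were 0.45 ± 0.13 (adjusted p = 0.037) at D0 and 0.18 ± 0.13 (adjusted p = 0.34) at D6. KIF26A passed the test at neither day (-0.39 ± 0.25, adjusted p = 0.24 and 0.56 ± 0.26, adjusted p = 0.10). The remaining calls were KIF16B and KIF27, higher at both days, and KIF9 and KIFC2, lower at D0.

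**Figure D3:**
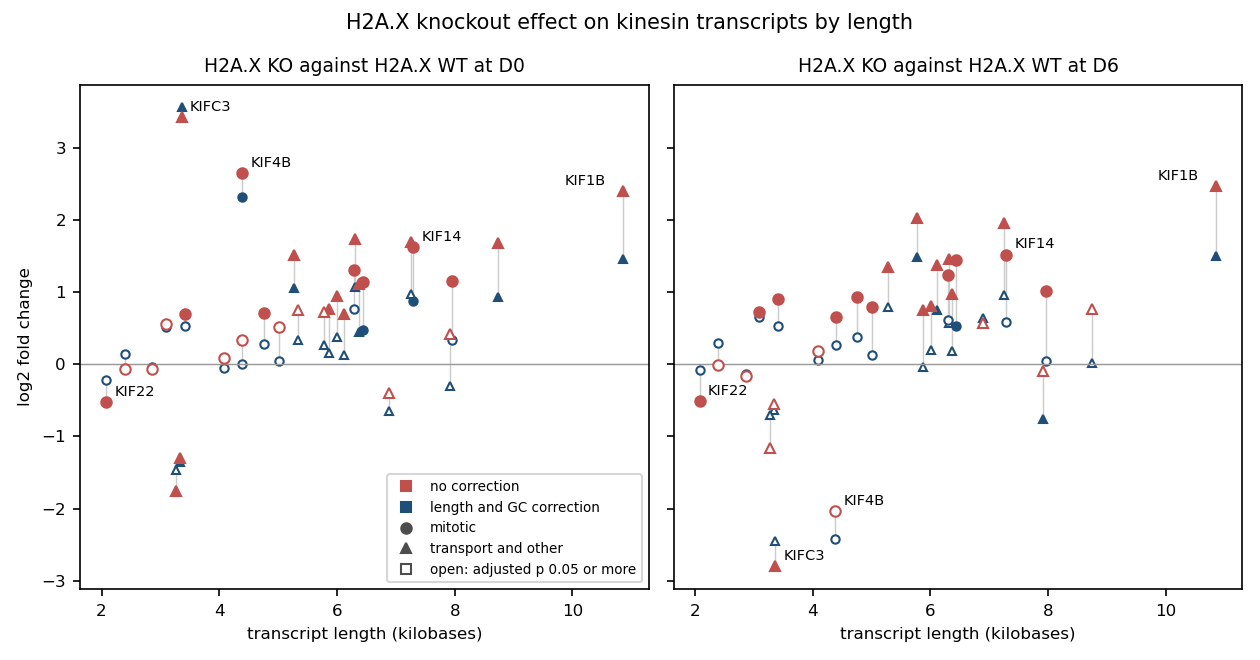
Log2 fold change of H2A.X KO against WT for each kinesin tested (vertical axis) against its canonical transcript length in kilobases, at D0 (left) and D6 (right), in red without and in blue with the correction for length and GC, joined by a line per gene. Filled points have an adjusted p under 0.05: 20 of the red points at D0 are filled and 9 of the blue ones, and KIF3C is not drawn at D6 because it is at 0 in WT.

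KIFC3 was the only kinesin whose H2A.X KO effect was called different at D6 from D0, where 1.34% of genes were (0.302% higher and 1.04% lower). It had 10.1 and 12.0 normalized counts in WT and 125, 108 and 124 in KO at D0, higher in every KO library (3.42 ± 0.82, adjusted p = 0.013). At D6 it had 52.5 and 7.16 in WT and 10.1, 0.95 and 1.93 in KO, groups that overlap, with a called difference of -2.80 ± 0.83 (adjusted p = 0.021). In KO the fall from D0 to D6 was -4.73 ± 0.77 (adjusted p = 0.0016), and in WT the change was 1.49 ± 0.86 (adjusted p = 0.36). Between the days the KO effect thus differed by -6.22 ± 1.16 (adjusted p = 0.034). The call was lost when any 1 of the D0 libraries, or WT replicate 1 at D6, was left out. Without KO replicate 3 at both days, and without WT replicate 2 at both days, no kinesin was called.

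The summed mast cell and eosinophil list was likewise higher in KO at D0 and lower in KO at D6. It came to between 104 and 140 CPM in WT and between 210 and 419 in KO at D0, and to between 145 and 232 in WT and between 3.08 and 13.5 in KO at D6, with CLC at 0 throughout, HDC at 0 outside KO at D0, and EPX at 0 at D6. The megakaryocyte list summed to between 8.72 and 9.67 CPM in WT and between 32.7 and 75.7 in KO at D0, and to between 3.57 and 7.93 in WT and between 1.93 and 4.84 in KO at D6. At D6 2 of the 10 mast cell and eosinophil genes and 1 of the 5 megakaryocyte genes had over 10 reads in every library of each genotype. The part of these lists in the KIFC3 result was not tested.

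The comparison of BAZ1B KO with BAZ1B WT asks the same of the kinase. At D0 1 kinesin of 31 was called, where 3.88% of genes were called (1.25% higher and 2.64% lower). KIF26A had 4804, 4614 and 4919.9 normalized counts in WT and 4024, 2755 and 2958 in KO, so that every KO library was below every WT library (-0.56 ± 0.11, adjusted p = 0.011). The call was lost without WT replicate 3 or without KO replicate 3, and without KO replicate 1, the highest of the KO libraries, 4 kinesins were called. Of the 31, 5 had an unadjusted p under 0.05. At D6 KIF26A was nearly equal, with 11315, 11137 and 12912 in WT against 12009, 11852 and 11725 in KO (0.01 ± 0.11, adjusted p = 0.97).

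At D6 4 kinesins were called higher and 1 lower in BAZ1B KO, where 12.8% of genes were called (6.87% higher and 5.97% lower). The 4 that were higher had fallen from D0 to D6 or, for KIF21A, risen slightly. KIF13A had 3239.8, 3100.4 and 3272 in WT against 3956, 3659 and 3840.3 in KO (0.25 ± 0.05, adjusted p = 0.0056), and KIF2A had 2332, 2323 and 1999 in WT against 2665, 2522 and 2639.8 in KO (0.24 ± 0.06, adjusted p = 0.016). KIF3B had 825, 930.1 and 894 in WT against 1029, 962 and 1024 in KO (0.19 ± 0.06, adjusted p = 0.045), and KIF21A 1676, 1668 and 1619 in WT against 1862, 1791 and 1845 in KO (0.15 ± 0.04, adjusted p = 0.048). In these 4 genes every KO library was above every WT library, by less than a factor of 1.2 in the fitted fold change. The genes were called on these same values, so the separation adds no support. The share of all genes that separated in this way was not counted. At D0 the same 4 genes had differences of 0.04 ± 0.05, 0.05 ± 0.06, 0.05 ± 0.05 and 0.01 ± 0.04, none of them called. KIFC3 was lower in KO, with 23.8, 8.12 and 4.19 against 48.0, 49.8 and 24.2 in WT (-1.70 ± 0.43, adjusted p = 0.021), at 4 to 50 normalized counts. The mast cell and eosinophil list summed to between 30.0 and 40.8 CPM in WT and between 12.3 and 38.4 in KO at that day, and the megakaryocyte list to between 8.32 and 10.4 and between 1.42 and 4.77. In each genotype 2 of the 10 genes of the first list and 1 of the 5 of the second had over 10 reads in every library. The part of these lists was not tested.

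The call counts at D6 moved with single libraries. The count of 5 was 1 without KO replicate 3, 2 without WT replicate 1, and 3 without WT replicate 2, WT replicate 3 or KO replicate 1. KIF21A was lost with the replicate number as a block (0.15 ± 0.05, adjusted p = 0.059). The 12 mitotic kinesins that rose to D6 in WT were not called at either day between the genotypes, with differences between 0.02 and 0.17 at D0 and between -0.08 and 0.06 at D6. Of their 25 partner genes 0 were called at D0, with a median of 0.05, where 3.88% of all genes were called. At D6 4 were called lower and 0 higher in KO, with a median of -0.06, where 5.97% of all genes were lower and 6.87% higher. For the difference of KO effects between the days 2 were called lower and 0 higher, where 0.893% of all genes were lower and 1.58% higher.

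In edgeR's test no kinesin was called for a BAZ1B KO effect that differed between the days, where 2.47% of genes were called (1.58% higher and 0.893% lower). At an unadjusted p under 0.05 there were 10, and DESeq2 called 1, where it called 5.04% of all genes. The smallest p-values were those of KIF26A (0.57 ± 0.15, adjusted p = 0.075), KIFC3 (-1.59 ± 0.49, adjusted p = 0.11) and KIF13A (0.22 ± 0.07, adjusted p = 0.14). With each replicate number of a genotype as a block, 2 were called, KIF26A (0.59 ± 0.11, adjusted p = 0.012) and KIF5A (0.45 ± 0.11, adjusted p = 0.044). With that block 5.17% of all genes were called. Without KO replicate 1 at D0 3 were called, and without KO replicate 1 at D6 1 was. In 12 of 14 mitotic kinesins the fitted KO effect was lower at D6 than at D0, by at most 0.19, and these did not pass the test. No kinesin passed at an adjusted p under 0.001 and a log2 fold change beyond 1.5 for BAZ1B KO against WT, where 0.36% of genes passed at D0, 0.749% at D6 and 0.0288% for the difference between the days. None passed with that p unadjusted either, where 1.09%, 1.27% and 0.36% of genes did.

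**Figure D4:**
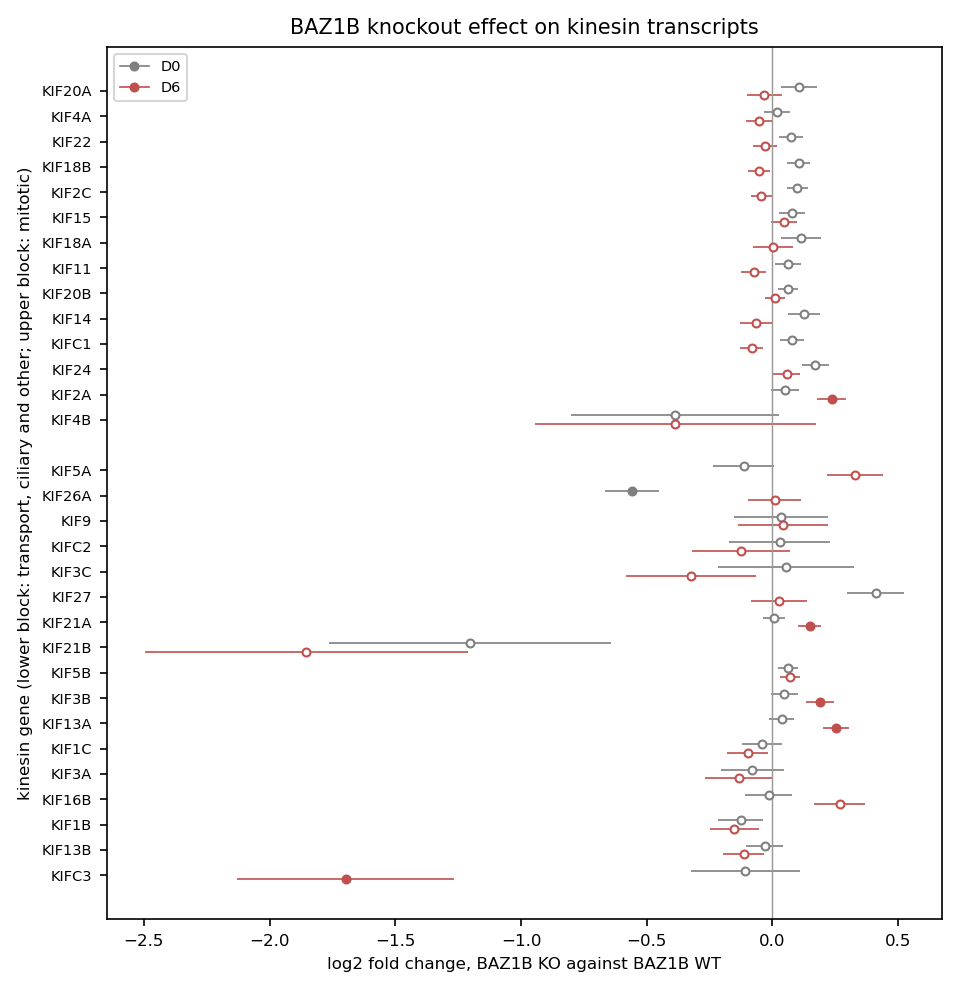
Log2 fold change of BAZ1B KO against BAZ1B WT for the 31 kinesins tested, at D0 in grey and D6 in red, with bars of 1 SE; filled points have an adjusted p under 0.05. The mitotic block lies close to 0 at both days except KIF4B with its wide bars, and the filled points are KIF26A at D0 and KIF2A, KIF3B, KIF13A, KIF21A and KIFC3 at D6.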

How the data were processed

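Poly(A) RNA-Seq libraries of HUDEP-2 cells were read as 2 tables of raw counts per gene name, 10 libraries for H2A.X and 12 for BAZ1B. The authors made the deposited counts before deposit by alignment and counting of reads over genes, per the labels with STAR 2.7.0f and Subread 1.6.4 (featureCounts), and DESeq2 1.22.1 is named too. The study's methods name the human build hg38 and GENCODE 31 for the alignment. The strand setting is not given in the sources used here, and the labels and the study's methods differ on the library kit and read length. No column of a table was without a sample (0 such columns).

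Libraries were grouped by genotype and day from the labels. Each table was fitted whole with edgeR 4.0.16 in R 4.3.3: genes with at least 10 counts in a group's worth of libraries and 15 in total were kept (filterByExpr), TMM normalization was used, and glmQLFit with glmQLFTest was run with 1 coefficient per genotype and day. The p-values are two-sided, from the quasi-likelihood F test, and adjusted by Benjamini-Hochberg over all genes tested. SE is the absolute log2 fold change divided by the square root of F. The depth per library, between 11910141 and 41273244 counts, sets the precision, and count intervals and floors (3 counts) cover counting error only. The scripts were tested on simulated data.

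Gene positions, lengths and GC content came from GENCODE 44 (GRCh38, Ensembl canonical transcript), matched by name or older name, for 90.8% and 89.4% of the genes tested, and promoters came from RefSeq (GRCh38.p14). The correction for length and GC used natural splines of 5 degrees of freedom each, fitted per library, as offsets. The members and lists were chosen with earlier results of these data known. Genes given with values were, per comparison of genotypes, at most the 8 called members with the smallest p, per comparison of days the 4 in each direction, the 3 most abundant per length, and, with no call, the 3 with the smallest p. Other members are named to account for every call.

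Same-numbered D0 and D6 libraries deviated together from their group means in every pair of H2A.X KO (correlations 0.562, 0.305 and 0.289) and of BAZ1B KO (0.411, 0.505 and 0.107). They were taken as pairs in the replicate block only. The main fit, which gave the D6 against D0 values outside that block, leaves the pairing out. In BAZ1B WT the correlations were 0.237, -0.03 and 0.172, and same-numbered KO and WT libraries had correlations between -0.151 and 0.243. The alternatives were DESeq2 1.42.0 with its size factors, upper-quartile normalization, library sizes without globin genes, no filter on low counts, only the compared groups, stricter cutoffs (an adjusted p under 0.001 and a log2 fold change beyond 1.5), the correction, the replicate block with and without it, and leaving out each library. Leaving out H2A.X KO replicate 3 or H2A.X WT replicate 2 at both days was chosen after seeing the data, as was taking that p without adjustment, since the study's methods do not call it adjusted. Replicate libraries differed by more than the sampling noise (the smallest chi-square per degree of freedom was 2.911).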

Additional observations from a re-analysis of the deposited data

Results flagged for a closer look

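KIFC3 stood out because its H2A.X KO effect ran in opposite directions on the 2 days, and edgeR's test of that difference passed at -6.22 ± 1.16 on the log2 scale (adjusted p = 0.034, higher in 3 of 3 KO libraries at D0 and lowest in 2 of 3 KO libraries at D6). Without H2A.X WT replicate 1 at D6, the library with 52.5 normalized counts, the difference was -4.10 with an adjusted p of 0.26. Over the 10 fits that left out 1 library each, the value ran from -7.75 to -4.10 and the adjusted p from 0.013 to 0.26. In the BAZ1B experiment the same difference was -1.59 ± 0.49 (adjusted p = 0.11). The experiments were not tested against each other. The H2A.X KO effect of KIF4B, whose counts are low and uncertain, also changed direction. It was 2.65 ± 0.64 (adjusted p = 0.013) at D0 and -2.03 ± 0.86 (adjusted p = 0.079) at D6. Its difference of -4.68 ± 1.085 did not pass edgeR's test (adjusted p = 0.066).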

How the results depend on the processing

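Counts of kinesins called are given here. The share of all genes called was counted for the main fit, the stricter cutoffs, DESeq2, the correction alone and the replicate block alone. It was not counted for the other settings, so their counts have no share beside them. With an adjusted p under 0.001 and a log2 fold change beyond 1.5, 0 kinesins passed in all 5 H2A.X comparisons and in BAZ1B KO against WT at D0 and at D6, 2 passed between the days in BAZ1B WT and 4 in BAZ1B KO. With that p unadjusted, chosen after seeing the data, the counts were 3 for H2A.X KO at D0, 1 at D6, 1 for the difference, 0 between the days in H2A.X WT and 2 in KO, and in the BAZ1B experiment 0 at D0, 0 at D6, 2 in WT and 4 in KO. With DESeq2 the count was 2 for the difference of H2A.X KO effects between the days, 2 for D6 against D0 in H2A.X WT, 2 for BAZ1B KO at D0 and 1 for the difference of BAZ1B KO effects. In that order DESeq2 called 5.14%, 8.06%, 5.3% and 5.04% of all genes in these comparisons. With no filter on low counts these were 4 for the difference of H2A.X KO effects, 2 in H2A.X WT and 3 for the difference of BAZ1B KO effects. With only the compared groups the counts were 0 in H2A.X WT, 0 for BAZ1B KO at D0 and 3 at D6, and with upper-quartile normalization 3 at D6. Upper-quartile normalization also moved the median of all genes for H2A.X KO at D6 to -0.11. With the correction for length and GC the counts were 9 for H2A.X KO at D0, 5 at D6 and 2 for BAZ1B KO at D0, and with that correction and the replicate block 10, 8 and 2, and 2 for the difference of H2A.X KO effects. The correction alone called 21% of all genes for H2A.X KO at D0, 21.1% at D6 and 4.27% for BAZ1B KO at D0. The replicate block alone gave 2 for the difference of BAZ1B KO effects, where 5.17% of all genes were called, and moved no other count by over 1.5 times. Without H2A.X KO replicate 3 at both days the counts were 0 for the difference of H2A.X KO effects and 7 for D6 against D0 in H2A.X KO. Without H2A.X WT replicate 2 at both days they were 0 at D0, 5 at D6, 0 for the difference and 0 in H2A.X WT. Leaving out 1 library in turn gave from 0 to 17 for H2A.X KO at D0, 0 to 25 at D6, 0 to 2 for the difference, 0 to 1 between the days in WT and 6 to 15 in KO. In the BAZ1B experiment it gave 0 to 4 for KO at D0, 1 to 4 at D6, 0 to 3 for the difference, 29 to 30 between the days in WT and 25 to 26 in KO. A group left with 1 library was assumed to vary like the others. Over the 51 results by which genes were named, each a gene in the comparison that named it, 757 values came from alternatives: 658 kept their direction and side of the threshold, 93 lost the call, 6 gained it and 0 changed direction. Outside these, KIF5B for H2A.X KO at D6, called at 0.75, went to -0.03 with the correction. The cause was not tested for any of these. Depth limits the members with few reads, KIF3C, KIF4B and KIFC3 among them, whose errors are wide.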
